A study of Mus musculus with 4 samples.

Results

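The genes described here are 43 members of the nuclear receptor family. They were taken as a list of gene names and located in GENCODE vM21 (GRCm38), where all 43 were found as protein-coding genes, out of 21938 protein-coding genes in all. Of these receptors, 11 have a known role in the hepatocyte (Nr1h3, Nr1h4, Nr1i2, Nr1i3, Nr0b2, Nr3c1, Nr5a2, Ppara, Rxra, Rora and Thrb) and the other 32 were kept for comparison. Chromatin accessibility was profiled by ATACseq, in which the Tn5 transposase cuts open DNA, and the histone variant H2A.Z by ChIPseq with micrococcal nuclease digestion. Each assay was carried out once on a WT liver, which was from a Uhrf1-fl/fl mouse without Cre, and once on a Uhrf1hepKO liver, from a Uhrf1-fl/fl mouse with Alb:Cre. This gives 4 libraries, 1 for each genotype and assay. Both mice were C57Bl/6 males, 8 to 12 weeks old and fed a normal diet, and the same 2 livers served both assays. Alb:Cre is active in the hepatocyte lineage, so liver cells of other lineages in the Uhrf1hepKO mouse keep Uhrf1, a gene whose product is needed to maintain DNA methylation.

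The data are lists of peaks, which are the regions where the authors' caller found more reads than the local background. After restriction to chromosomes 1 to 19, X and Y, the lists held 10582 ATACseq peaks in WT and 10764 in Uhrf1hepKO, and 51450 H2A.Z peaks in WT and 47135 in Uhrf1hepKO. A gene was scored for a peak that overlapped the window of 5 kb on either side of its TSS, the 5′ end of the gene, or its body, from the first to the last base. With 1 library per group there is no replicate check and no p-value. The intervals given are 95% Wilson intervals and cover counting error only. The fold of a peak is its enrichment over the background of its own library and was not compared between libraries. Absence of a peak means that none could be detected with the reads at hand, whose number per library is unknown. The marker genes of hepatocytes show how far this goes. Of 9 such genes found in the annotation, none had an ATACseq peak in the TSS window in WT and only Alb had one in Uhrf1hepKO, while Fgb and Ttr had an H2A.Z peak in WT and Fgb in Uhrf1hepKO. Of 5 markers each of Kupffer, endothelial, stellate and lymphoid cells, none had a TSS peak in any of the 4 libraries. Of the 5 cholangiocyte markers, Sox9 had a TSS peak in WT ATACseq and Spp1 and Sox9 had H2A.Z peaks in both genotypes. Uhrf1 itself had 1 peak at its TSS in each of the 4 libraries, which says nothing of the floxed exons.

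Nuclear receptors are transcription factors that bind DNA through a zinc finger domain, and many of them are switched by a small lipid-soluble ligand such as a bile acid, an oxysterol, a fatty acid, a steroid or a retinoid. Many bind as heterodimers with a retinoid X receptor and hand on the signal through coactivators and corepressors that change the surrounding histones. In the hepatocyte they set the genes of bile acid, cholesterol, fatty acid and drug metabolism. H2A.Z replaces H2A in the nucleosomes that flank many start sites, and Tn5 cuts best in the nucleosome-free DNA between them.

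The first set of sequences shows accessible elements at receptor genes that were listed in both genotypes. Each is the span covered by the WT and Uhrf1hepKO ATACseq peaks together, on the + strand of GRCm38, with the bases under both peaks in capitals. They are the element of Nr3c2 (chr8:76902001-76902227, in an intron, 185 shared bases), the element upstream of Esrra (chr19:6921934-6922180, 149 shared bases), and a pair of intronic elements of Rora (chr9:68883808-68884018, 172 shared bases, and chr9:69230018-69230196, 120 shared bases).
Nr3c2: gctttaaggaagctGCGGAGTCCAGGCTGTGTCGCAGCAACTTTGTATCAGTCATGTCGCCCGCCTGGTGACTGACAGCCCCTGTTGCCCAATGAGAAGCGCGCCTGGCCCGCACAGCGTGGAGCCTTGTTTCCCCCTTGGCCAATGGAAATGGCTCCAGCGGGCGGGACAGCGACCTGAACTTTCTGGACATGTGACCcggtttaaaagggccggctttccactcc
Esrra: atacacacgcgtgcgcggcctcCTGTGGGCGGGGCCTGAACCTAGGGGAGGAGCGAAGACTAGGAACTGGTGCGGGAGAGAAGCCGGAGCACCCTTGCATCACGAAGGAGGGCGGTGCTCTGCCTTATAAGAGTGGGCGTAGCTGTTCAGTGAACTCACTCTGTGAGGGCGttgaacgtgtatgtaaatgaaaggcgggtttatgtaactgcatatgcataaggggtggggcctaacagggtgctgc
Rora, first element: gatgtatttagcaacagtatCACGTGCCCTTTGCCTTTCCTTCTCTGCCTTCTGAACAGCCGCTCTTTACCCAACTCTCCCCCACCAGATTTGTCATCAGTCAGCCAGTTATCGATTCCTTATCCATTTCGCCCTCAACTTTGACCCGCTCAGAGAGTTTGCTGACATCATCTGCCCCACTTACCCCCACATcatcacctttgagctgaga
Rora, second element: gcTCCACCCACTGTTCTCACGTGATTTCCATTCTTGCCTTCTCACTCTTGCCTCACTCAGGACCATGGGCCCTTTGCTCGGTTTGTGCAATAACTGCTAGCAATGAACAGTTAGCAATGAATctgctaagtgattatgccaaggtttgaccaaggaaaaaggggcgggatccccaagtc

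The second set comes from receptors with a short ATACseq peak before the TSS, and capitals mark the GC box (GGGCGG on either strand). The Uhrf1hepKO peak at Nr0b2 spans the TSS and is shown up to the base before it (chr4:133553315-133553375). The WT peak at Ppard (chr17:28232513-28232648) had no counterpart in Uhrf1hepKO. The Uhrf1hepKO peak at Nr4a3 (chr4:48042806-48042988) lies inside a longer WT peak. All are on the + strand.
Nr0b2: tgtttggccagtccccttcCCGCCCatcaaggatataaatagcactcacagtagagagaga
Ppard: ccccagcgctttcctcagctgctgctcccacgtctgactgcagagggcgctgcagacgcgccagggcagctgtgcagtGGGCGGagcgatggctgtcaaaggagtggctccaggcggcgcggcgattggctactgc
Nr4a3: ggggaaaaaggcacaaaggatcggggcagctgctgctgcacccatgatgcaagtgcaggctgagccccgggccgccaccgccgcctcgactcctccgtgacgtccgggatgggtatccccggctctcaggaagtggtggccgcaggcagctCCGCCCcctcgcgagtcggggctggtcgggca

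The last sequence is the 250 bases before a RefSeq start of Nr1h3 (GRCm38.p6, chr2:91195117-91195366, − strand, written along the gene). Its start lies inside the GENCODE gene, and the 95 bases in capitals are under the only ATACseq peak listed at Nr1h3 in either genotype.
Nr1h3: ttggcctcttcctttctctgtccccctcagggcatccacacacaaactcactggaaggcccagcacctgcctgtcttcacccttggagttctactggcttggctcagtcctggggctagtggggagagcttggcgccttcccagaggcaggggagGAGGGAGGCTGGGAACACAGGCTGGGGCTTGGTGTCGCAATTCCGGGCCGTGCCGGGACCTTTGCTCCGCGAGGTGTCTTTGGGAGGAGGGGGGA

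At the 5′ end of the gene, few receptors were marked by an ATACseq peak and about as many as among all genes by an H2A.Z peak. In WT, 7 of the 43 receptors (16.3%, interval 8.12 to 30.0%) had an ATACseq peak in the TSS window, against 30.2% of all protein-coding genes. In Uhrf1hepKO it was 10 (23.3%, interval 13.2 to 37.7%), against 27.9%. H2A.Z peaks lay in the window of 22 receptors in WT (51.2%, interval 36.8 to 65.4%), against 52.8% of all protein-coding genes, and of 23 in Uhrf1hepKO (53.5%, interval 38.9 to 67.5%), against 51.0%. The shares of receptors with H2A.Z were thus close to the background in both livers. The WT ATACseq share was below it, with an interval that ended just under the background, and the Uhrf1hepKO share had an interval that included it.

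None of the 11 receptors with a liver role had an ATACseq peak at its TSS in WT (interval 0 to 25.9%), whereas 7 of the other 32 did (21.9%, interval 11 to 38.8%). In Uhrf1hepKO the numbers were 2 of 11 (18.2%, interval 5.14 to 47.7%), namely Nr0b2 and Ppara, and 8 of 32 (25%, interval 13.3 to 42.1%). For H2A.Z they were 5 of 11 in both genotypes (45.5%, interval 21.3 to 72.0%), against 17 of 32 in WT (53.1%, interval 36.4 to 69.1%) and 18 of 32 in Uhrf1hepKO (56.2%, interval 39.3 to 71.8%). The intervals of the receptors with and without a liver role overlapped in each of the 4 libraries, so a difference between them was not shown. The H2A.Z peaks were at the same 5 liver-role genes in both livers, Nr1h3, Nr1h4, Nr1i2, Rora and Thrb. The direction of the comparison depended on the list. With a wider list of 18 liver-role receptors, their share was the higher one in all 4 libraries, at 16.7% against 16% in WT ATACseq.

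**Figure D1:**
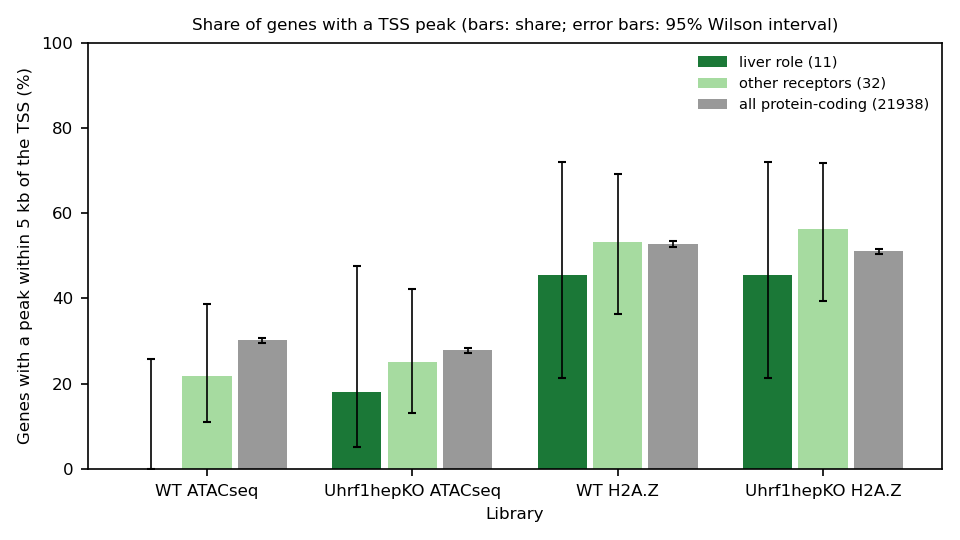
Percent of genes with a peak in the TSS window of 5 kb on either side (y axis) in each library (x axis), for the 11 receptors with a liver role, the other 32 receptors and all 21938 protein-coding genes, with 95% Wilson intervals as error bars. The liver-role bar is at 0% in WT ATACseq and 18.2% in Uhrf1hepKO ATACseq, and the intervals of the receptor groups overlap in every library.

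Among the sterol and bile acid sensors, Nr1h3 encodes LXRα, an oxysterol receptor that turns on cholesterol efflux and lipogenesis. Its TSS was flanked by a pair of H2A.Z peaks in both genotypes, with summits 182 bp upstream (fold 7.07) and 297 bp downstream (fold 5.85) in WT, and 194 bp upstream (fold 5.81) and 290 bp downstream (fold 6.97) in Uhrf1hepKO. The TSS of Acp2 lies close by, 131 bp from the upstream summit in WT, so these peaks cannot be assigned to 1 of the genes. A further H2A.Z peak lay inside the gene, at 7841 bp from the TSS in WT (fold 6.82) and 7982 bp in Uhrf1hepKO (fold 6.74). These summits were 32 and 33 bp from annotated starts inside Nr1h3, which were not the same start. In Uhrf1hepKO the ATACseq peak shown above also lay there, 489 bp wide with a fold of 3.33. That fold was at percentile 7.28 of the folds in its list. No ATACseq peak was listed in WT at any of these starts, and the nearest one was 62043 bp from the TSS. Nr1h4 encodes FXR, the bile acid receptor. H2A.Z lay 241 bp upstream of its TSS in WT (fold 6.34) and 250 bp upstream in Uhrf1hepKO (fold 6.51), where further peaks followed at 427 bp (fold 4.42) and 684 bp (fold 5.11) downstream. No ATACseq peak was listed within 89323 bp of this TSS in either genotype. The group also holds genes without a set liver role. Nr1h2, the ubiquitous LXRβ, had an H2A.Z peak 241 bp upstream in WT (fold 8.29) and 235 bp upstream in Uhrf1hepKO (fold 8.60). Its ATACseq peaks were at the far edge of the window, at 5042 bp in WT (fold 6.18) and 5018 bp in Uhrf1hepKO (fold 4.04), where the TSS of Pold1 was 60 and 84 bp away. Nr1h5, a further gene of this group, had no peak in any library.

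The xenobiotic sensors PXR and CAR, which induce genes of drug metabolism, were unlike each other. Nr1i2 (PXR) had H2A.Z only upstream of its TSS, in 5 short peaks in WT between 3944 and 218 bp from it and in 3 peaks in Uhrf1hepKO between 3939 and 525 bp. The strongest in WT had a fold of 6.34 and lay 497 bp upstream, and that in Uhrf1hepKO had a fold of 6.04 and lay 3939 bp upstream. Nr1i3 (CAR) had no peak at its TSS or in its body in any library. The nearest ATACseq peak downstream of the Nr1i3 TSS was at 8514 bp in WT (fold 3.81) and 8561 bp in Uhrf1hepKO (fold 3.41), beyond the end of the gene. The nearest H2A.Z peak was 8305 bp downstream in WT (fold 5.85) and 33376 bp downstream in Uhrf1hepKO (fold 9.76).

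Nr0b2 and Ppara had an ATACseq peak at the TSS in Uhrf1hepKO only, and no H2A.Z peak there in either genotype. Nr0b2 encodes SHP, a receptor without a DNA-binding domain that represses bile acid synthesis when FXR is active. Its peak was 111 bp wide, covered the TSS and had a fold of 3.45, at percentile 16.1 of the folds in its list. In WT the nearest ATACseq peak to Nr0b2 was 73111 bp away. The sequence shown above holds 1 GC box. Ppara encodes the fatty acid sensor that drives β-oxidation in fasting. The peak was 439 bp wide, centred 586 bp downstream of the TSS, and its fold of 3.35 was at percentile 9.37. In WT the nearest peak was 14370 bp upstream. H2A.Z was no nearer to Nr0b2 than 21126 bp in WT and 6845 bp in Uhrf1hepKO, and no nearer to Ppara than 64617 and 67349 bp. Both ATACseq peaks were thus among the weaker ones of their list. Their q-values were 0.0276 for Nr0b2 and 0.0718 for Ppara, so neither was kept at a q-value of at most 0.01.

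Thrb and Rora are long genes with H2A.Z but no ATACseq peak at the TSS. Thrb encodes TRβ, the main thyroid hormone receptor of the hepatocyte. It had a pair of H2A.Z peaks upstream of the TSS in both genotypes, at 876 bp (fold 7.31) and 391 bp (fold 4.87) in WT and at 698 bp (fold 8.13) and 324 bp (fold 4.42) in Uhrf1hepKO. Rora encodes RORα, a receptor of circadian and lipid gene control. Its H2A.Z peaks at the TSS were weak, with folds of 3.90, 4.14 and 3.90 in WT and 3.95 and 4.18 in Uhrf1hepKO.

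The remaining 3 liver-role receptors had no TSS peak in any library. Nr3c1, the glucocorticoid receptor gene, had no peak within 5 kb of the 5′ end of the gene. It had 5 H2A.Z peaks in its body in each genotype, and the strongest was at 27409 bp in WT (fold 11.5) and 27585 bp in Uhrf1hepKO (fold 10.2). These 2 summits were 711 and 535 bp from another annotated start of Nr3c1, so the strongest H2A.Z peak of this gene sat near an internal start. The nearest ATACseq peak was 138938 bp downstream of the 5′ end in WT and 138905 bp downstream in Uhrf1hepKO, past the end of the gene. Rxra, which encodes the retinoid X receptor that pairs with most of the sensors above, had a single peak, an intronic ATACseq peak of 114 bp at 82131 bp in Uhrf1hepKO (fold 3.98). The peaks nearest its TSS were all upstream, at 135994 bp in WT and 51295 bp in Uhrf1hepKO for ATACseq and at 85532 and 35723 bp for H2A.Z. Nr5a2, which encodes the liver receptor homologue of bile acid synthesis, had no peak at the TSS or in the body. Its nearest H2A.Z peak lay just outside the window, 6047 bp upstream in WT (fold 6.09) and 6533 bp upstream in Uhrf1hepKO (fold 11.4).

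**Figure D2:**
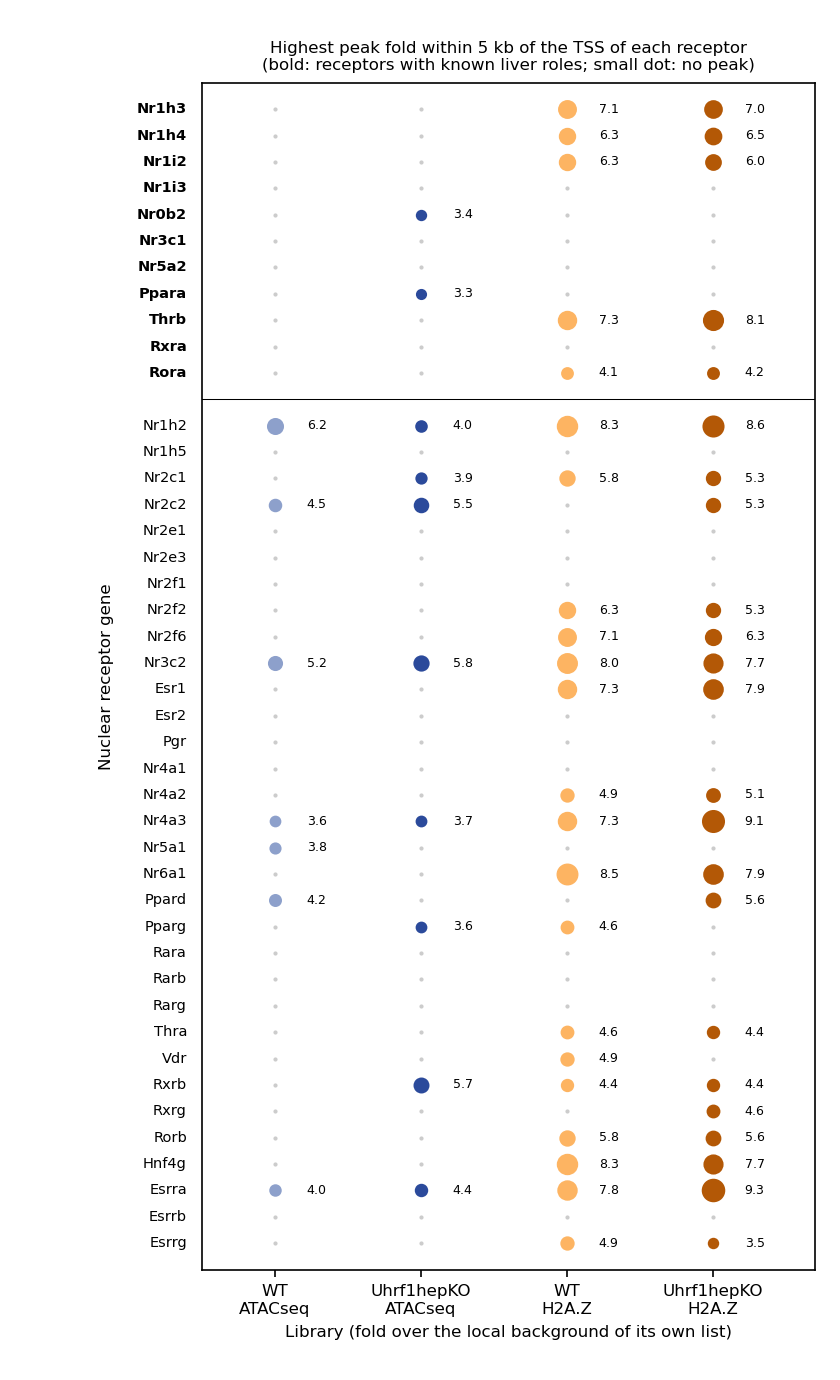
Highest fold of a peak within 5 kb of the TSS for each of the 43 receptor genes (rows, liver-role genes in bold above the line) in the 4 libraries (columns). Circle size grows with the fold printed beside it, small dots mark genes without a peak, and folds are relative to each library's own background. The liver-role rows have circles in both H2A.Z columns for 5 genes and in ATACseq only for Nr0b2 and Ppara in Uhrf1hepKO.

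Of the other 32 receptors, 4 had a TSS peak in all 4 libraries, Nr1h2, Nr3c2, Nr4a3 and Esrra, against none of the liver-role receptors and 20.9% of all protein-coding genes. For Nr1h2 the ATACseq peaks were those beside the TSS of Pold1. Nr3c2 encodes the mineralocorticoid receptor and was the most densely covered. Its window held 11 H2A.Z peaks in WT and 9 in Uhrf1hepKO, and the strongest was 431 bp upstream in WT (fold 8.04) and 426 bp upstream in Uhrf1hepKO (fold 7.67). The ATACseq peak was 2658 bp downstream in WT (fold 5.25) and 2679 bp downstream in Uhrf1hepKO (fold 5.80), 188 and 167 bp from another annotated start of the gene, and it overlapped no H2A.Z peak in either genotype. Esrra encodes an oestrogen-related receptor that controls mitochondrial genes. It had an ATACseq peak 206 bp upstream in WT (fold 3.99) and 255 bp upstream in Uhrf1hepKO (fold 4.44), and beyond it an H2A.Z peak 714 bp upstream in WT (fold 7.80) and 474 bp upstream in Uhrf1hepKO (fold 9.30). Nr4a3 belongs to the NR4A family of immediate early orphan receptors. It was marked only on the upstream side, with ATACseq peaks at 1989 and 296 bp in WT (folds 3.63 and 3.38) and at 2256 and 272 bp in Uhrf1hepKO (folds 3.30 and 3.66). Its H2A.Z peaks lay at 2489 and 1340 bp upstream in WT (folds 5.85 and 7.31) and at 2482, 1341 and 525 bp in Uhrf1hepKO (folds 4.65, 9.06 and 6.74). The other NR4A genes were less marked. Nr4a2 had 1 H2A.Z peak inside the gene in each genotype, at 371 bp in WT (fold 4.87) and 413 bp in Uhrf1hepKO (fold 5.11). Nr4a1 had no TSS peak, and a WT H2A.Z peak at 12675 bp (fold 4.63) lay 98 bp from another of its starts.

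Nr2c2, an orphan receptor gene, was the other one with ATACseq in both genotypes. It had a peak over the TSS (fold 3.66 in WT and 4.01 in Uhrf1hepKO) and a stronger one downstream, at 889 bp in WT (fold 4.49) and 801 bp in Uhrf1hepKO (fold 5.46).

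H2A.Z peaks without an ATACseq peak in the TSS window were also listed at Hnf4g and Nr6a1 in both genotypes. At Hnf4g, a relative of the hepatocyte factor HNF4α, H2A.Z peaks flanked the TSS at 215 bp upstream (fold 7.80) and 131 bp downstream (fold 8.29) in WT and at 229 bp upstream and 134 bp downstream in Uhrf1hepKO (both with a fold of 7.67). Nr6a1 encodes the germ cell nuclear factor, which silences pluripotency genes. Its window held 6 H2A.Z peaks in WT and 5 in Uhrf1hepKO, with folds up to 8.53 and 7.90. Esr1, the oestrogen receptor gene, had an H2A.Z peak over its TSS in WT (fold 7.31), and in Uhrf1hepKO the strongest peak lay 129 bp upstream of it (fold 7.90). The orphan receptor genes Nr2f2 and Nr2f6 had H2A.Z in both genotypes, with folds up to 6.34 and 7.07 in WT and 5.35 and 6.27 in Uhrf1hepKO. No peak at the TSS was listed in any library for Nr2e1, Nr2e3 and Nr2f1, which act mainly in the nervous system and the retina, nor for Esr2 and Pgr, nor for any of the 3 retinoic acid receptor genes. In all, 15 of the 43 receptors had no TSS peak in any library (34.9%, against 42.3% of all protein-coding genes). For 7 of them there was also none in the gene body (16.3%, against 33.3%), namely Nr1h5, Nr1i3, Nr2e1, Nr2e3, Nr2f1, Nr5a2 and Esr2.

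**Figure D3:**
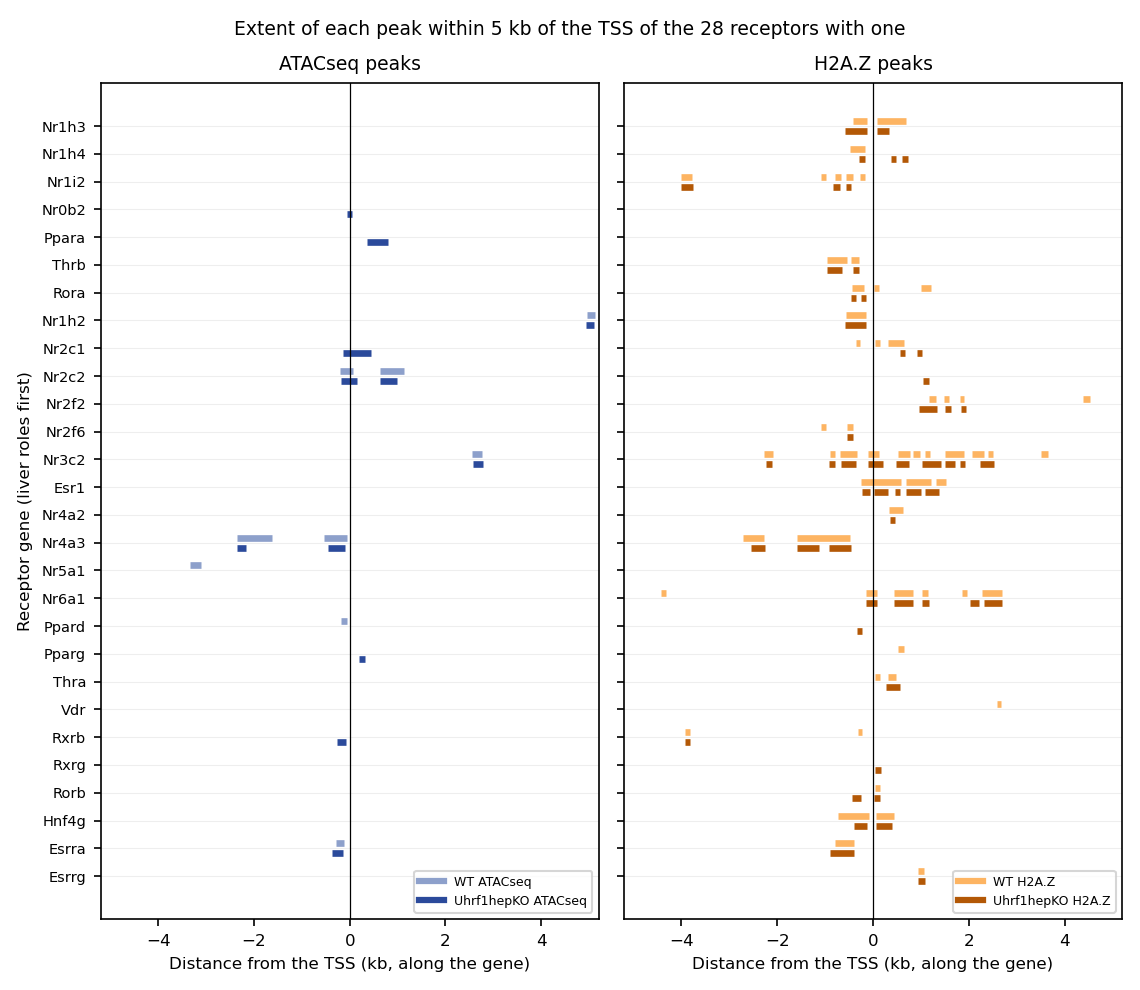
Extent of every ATACseq peak (left) and H2A.Z peak (right) within 5 kb of the TSS (x axis, kb along the gene, upstream to the left) for the 28 receptors with at least 1 such peak (rows). Light bars are WT and dark bars Uhrf1hepKO. H2A.Z bars lie on both sides of the TSS at Nr1h3 and Hnf4g and only upstream at Nr1i2, Thrb, Nr4a3 and Esrra, and the Nr3c2 ATACseq bars lie downstream of the TSS.

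H2A.Z summits of the receptors were mostly off the TSS itself. Of the 33 WT H2A.Z summits within 1 kb of a receptor TSS, 17 were upstream, 11 downstream and 5 within 100 bp (15.2%, against 5.96% among all protein-coding genes). In Uhrf1hepKO 18 of 35 were upstream, 14 downstream and 3 within 100 bp (8.57%, against 5.77%). Centres of ATACseq peaks were within 100 bp of the TSS for 1 of 5 peaks in WT and 2 of 9 in Uhrf1hepKO, against 49.0% and 50.1% among all protein-coding genes. With so few ATACseq peaks these shares are only a description.

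The number of CpGs at the TSS went with detection in all genes and differed between the receptor groups. Within 500 bp of the TSS the median was 21 CpGs for the liver-role receptors, 46.5 for the others and 41 for all protein-coding genes. Genes were put in 3 classes of nearly equal size, low with at most 18 CpGs, middle with at most 60, and high. In WT, an ATACseq peak was listed at 6.97% of all low, 33.5% of middle and 50.7% of high CpG genes, and an H2A.Z peak at 19.6%, 62.3% and 77.2%. Of the liver-role receptors, Nr1h4, Nr1i2, Nr1i3, Nr3c1 and Nr5a2 are in the low class, Nr1h3, Nr0b2 and Rxra in the middle class, and Ppara, Rora and Thrb in the high class. In the low class, no receptor had an ATACseq peak in WT (0 of 10), and H2A.Z was at 5 of 10 (50%, interval 23.7 to 76.3%, against 19.6%), among them Nr1h4 and Nr1i2. Among these 5, Nr2f2 and Vdr had their nearest summits at 1253 and 2628 bp, outside the 500 bp in which CpGs were counted. In the middle class, 2 of 18 receptors had an ATACseq peak (11.1%, interval 3.10 to 32.8%, against 33.5%) and 7 of 18 an H2A.Z peak (38.9%, interval 20.3 to 61.4%, against 62.3%). In the high class, 5 of 15 receptors had an ATACseq peak (33.3%, interval 15.2 to 58.3%, against 50.7%) and 10 of 15 an H2A.Z peak (66.7%, interval 41.7 to 84.8%, against 77.2%) in WT. The WT H2A.Z share of the receptors thus did not follow the order of the classes, though the intervals overlapped. It was above that of all genes in the low class and below it in the middle class. In Uhrf1hepKO the H2A.Z shares did follow the order, at 40%, 44.4% and 73.3%, against 18.6%, 60.1% and 75.1% of all genes. The part of the CpG number in the difference between the receptor groups was not tested.

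**Figure D4:**
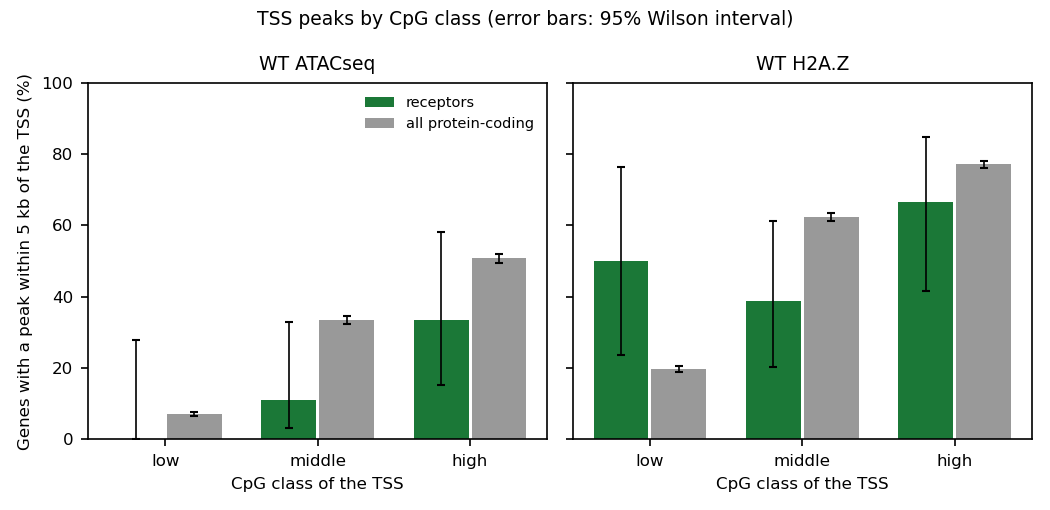
Percent of genes with a peak in the TSS window of 5 kb on either side (y axis) by CpG class of the TSS (x axis) for the 43 receptors and for all protein-coding genes, in WT ATACseq (left) and WT H2A.Z (right), with 95% Wilson intervals. For all genes the share rises from 6.97% to 50.7% in ATACseq and from 19.6% to 77.2% in H2A.Z, and no low CpG receptor has an ATACseq peak.

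Comparing the livers, detection at the TSS differed for 7 receptors in ATACseq and 5 in H2A.Z. An ATACseq peak was listed in WT only at Nr5a1 and Ppard (4.65%, interval 1.28 to 15.5%), against 7.19% of all protein-coding genes, and in Uhrf1hepKO only at Nr0b2, Nr2c1, Ppara, Pparg and Rxrb (11.6%, interval 5.07 to 24.5%), against 4.85%. H2A.Z was listed in WT only at Pparg and Vdr (4.65%, interval 1.28 to 15.5%), against 3.95%, and in Uhrf1hepKO only at Nr2c2, Ppard and Rxrg (6.98%, interval 2.40 to 18.6%), against 2.19%. With 1 mouse per genotype, these are differences between 2 livers and their libraries, not shown to be effects of the deletion.

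All 3 PPAR genes were among those whose detection differed. Ppard encodes the widely expressed PPARδ, and had a WT ATACseq peak 120 bp upstream of the TSS (fold 4.24) and a Uhrf1hepKO H2A.Z peak 292 bp upstream (fold 5.58). Pparg encodes the adipogenic PPARγ. It had a Uhrf1hepKO ATACseq peak 254 bp downstream (fold 3.64) and a WT H2A.Z peak 557 bp downstream (fold 4.63). In both genes the marks thus came from opposite genotypes. Except at Rxrb, the ATACseq peaks listed in Uhrf1hepKO only had folds below the median of their list, from percentile 9.37 (Ppara) to 42.9 (Nr2c1). Rxrb, a ubiquitous retinoid X receptor gene, had an ATACseq peak 171 bp upstream with a fold of 5.66, at percentile 88.1 of its list, but its centre was 41 bp from the TSS of Slc39a7. The peak over the TSS of Nr2c1, an orphan receptor gene, was 582 bp wide with a fold of 3.89. The WT-only peak at Nr5a1, which encodes the steroidogenic factor of the gonads and adrenal, lay 3220 bp upstream, had a fold of 3.83 and held no CpG. For H2A.Z, the WT peak at Vdr, the vitamin D receptor gene, lay at 2628 bp (fold 4.87). The Uhrf1hepKO peaks at Nr2c2 and Rxrg lay at 1089 bp (fold 5.35) and 103 bp (fold 4.65).

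Most receptor TSS peaks overlapped a peak of the other genotype by at least 1 bp. At receptor TSSs, 7 of 9 WT ATACseq peaks overlapped a Uhrf1hepKO peak (77.8%, interval 45.3 to 93.7%), against 72.8% of such peaks at all protein-coding genes, and 7 of 12 Uhrf1hepKO peaks overlapped a WT peak (58.3%, interval 32 to 80.7%), against 78.1%. For H2A.Z, 41 of 57 WT peaks (71.9%, interval 59.2 to 81.9%, against 78.2%) and 45 of 53 Uhrf1hepKO peaks (84.9%, interval 72.9 to 92.1%, against 84.3%) had a counterpart. Each interval included the share of all genes. With overlap of at least 50% of both peaks, the H2A.Z shares were lower, at 49.1% in WT and 52.8% in Uhrf1hepKO.

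ATACseq and H2A.Z peaks rarely met at the same receptor. Both were at the TSS of 4 receptors in WT (9.30%, interval 3.68 to 21.6%), against 27.8% of all protein-coding genes. In Uhrf1hepKO there were 7 (16.3%, interval 8.12 to 30.0%), against 25.0%, where Nr2c1, Nr2c2 and Rxrb joined the 4 of WT. The H2A.Z peak counted for Rxrb lay 3878 bp upstream, 126 bp from the TSS of H2-Ke6, and its ATACseq peak was nearer to Slc39a7, so neither can be assigned to Rxrb. The ATACseq peak counted for Nr1h2 lay 60 bp from the TSS of Pold1 in WT and 84 bp in Uhrf1hepKO. It cannot be assigned to Nr1h2 either. The WT interval lay below the share of all genes and the Uhrf1hepKO interval included it. H2A.Z without ATACseq was listed at 18 receptors in WT (41.9%, interval 28.4 to 56.7%, against 25.0% of all protein-coding genes) and 16 in Uhrf1hepKO (37.2%, interval 24.4 to 52.1%, against 26.0%). Neither mark was listed at 18 in WT (41.9%, against 44.8% of all protein-coding genes) and 17 in Uhrf1hepKO (39.5%, against 46.2%). All 5 liver-role receptors with H2A.Z had it without ATACseq in both genotypes. An ATACseq peak without H2A.Z was at Nr2c2, Nr5a1 and Ppard in WT and at Nr0b2, Ppara and Pparg in Uhrf1hepKO. These were 6.98% of the receptors in each genotype (interval 2.40 to 18.6%), against 2.37% and 2.81% of all protein-coding genes.

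The receptor genes are long, with a median of 49189 bp against 17425 bp for all protein-coding genes and 79352 bp for the liver-role receptors, and many of their peaks lay far inside. A peak in the gene body was listed for 9 receptors in WT ATACseq (20.9%, interval 11.4 to 35.2%), against 30.0% of all protein-coding genes, and for 15 in Uhrf1hepKO (34.9%, interval 22.4 to 49.8%), against 28.4%. For H2A.Z it was 22 in each genotype (51.2%, interval 36.8 to 65.4%), against 46.2% and 43.4%. Counting only the part of the body outside the TSS window, an ATACseq peak was listed for 8 receptors in WT (18.6%, interval 9.74 to 32.6%, against 8.54% of all protein-coding genes) and 9 in Uhrf1hepKO (20.9%, interval 11.4 to 35.2%, against 8.94%). H2A.Z lay there in 19 receptors in WT (44.2%, interval 30.4 to 58.9%, against 18.6%) and 18 in Uhrf1hepKO (41.9%, interval 28.4 to 56.7%, against 17.6%). These shares were above those of all genes, whose bodies are shorter, while the ATACseq share over the whole body in WT was below. Per 100 kb of body, the receptors held 0.323 ATACseq peaks in WT and 0.424 in Uhrf1hepKO, against 0.716 and 0.691 in all protein-coding genes. For H2A.Z it was 2.40 and 2.14, against 2.24 and 2.01. Among genes of 150 kb and over, the ATACseq values were 0.311 and 0.282 against 0.233 and 0.240. Of the liver-role receptors, Rora was the only one with a WT ATACseq peak in its body, and in Uhrf1hepKO Nr1h3, Nr0b2, Ppara and Rxra were added. Of the 119 WT H2A.Z peaks in receptor bodies, 86 lay outside the TSS window. Of these, 79 were intronic, 17 were within 1 kb of another start of the same gene, 60 overlapped a Uhrf1hepKO peak and 7 overlapped a WT ATACseq peak. In Uhrf1hepKO 76 of 106 lay outside the window, 70 of them intronic, 13 within 1 kb of another start and 60 with a WT counterpart.

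Rora carried the most. Its 23 H2A.Z body peaks in each genotype were spread over most of the 734461 bp of the gene, and the strongest was at 631244 bp in WT (fold 8.29) and at 456489 bp in Uhrf1hepKO (fold 8.83). The 3 intronic ATACseq peaks of WT all had a counterpart in Uhrf1hepKO. They lay at 230117 bp (fold 4.16), 456516 bp (fold 3.93) and 576322 bp (fold 4.25), and in Uhrf1hepKO at 230137 bp (fold 4.16), 456555 bp (fold 4.05) and 576292 bp (fold 4.85), with a further peak at 653166 bp (fold 3.75). The first and the last of the shared peaks are the Rora elements shown above. An H2A.Z peak lay at 229893, 456445 and 576514 bp in WT, beside or over each of them. After Rora, the most H2A.Z body peaks were in Nr3c2, with 21 in WT and 14 in Uhrf1hepKO. Nr6a1 had 13 and 9, Esrrg 10 and 11, and Esr1 9 and 8. Fewer lay in Nr2c1 (6 and 4), Nr2f2 (6 and 5), Rarb (5 and 7) and Nr3c1 (5 and 5). For ATACseq, after Rora with 3 and 4 body peaks, Nr3c2 had 3 in WT and 1 in Uhrf1hepKO, Nr2c2 had 2 in each, Pparg and Esrrg had 2 in WT and 1 in Uhrf1hepKO, and Rarb and Rxrg had 1 in WT and 2 in Uhrf1hepKO. Esrrg, an oestrogen-related receptor gene of oxidative tissues, had a strong intronic H2A.Z peak at 447250 bp in WT (fold 10.5) and 447232 bp in Uhrf1hepKO (fold 10.2), 730 and 946 bp wide. Esr1 had one at 126748 bp in WT (fold 9.02) and 126726 bp in Uhrf1hepKO (fold 11.4), which overlapped an ATACseq peak in WT.

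All 10 receptors of 150 kb and over had an H2A.Z peak in the body in both genotypes, against 80.8% and 78.1% of all protein-coding genes of that length. They held 2.54 H2A.Z peaks per 100 kb in WT and 2.23 in Uhrf1hepKO, against 1.22 and 1.10 in all genes of that length. Rora and Nr3c2 gave 23 and 21 of these WT peaks. The receptors between 50 and 150 kb went the other way, with 0.975 and 1.19 peaks per 100 kb against 2.04 and 1.81, and those under 50 kb had 4.13 and 3.31 against 4.49 and 4.05.

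**Figure D5:**
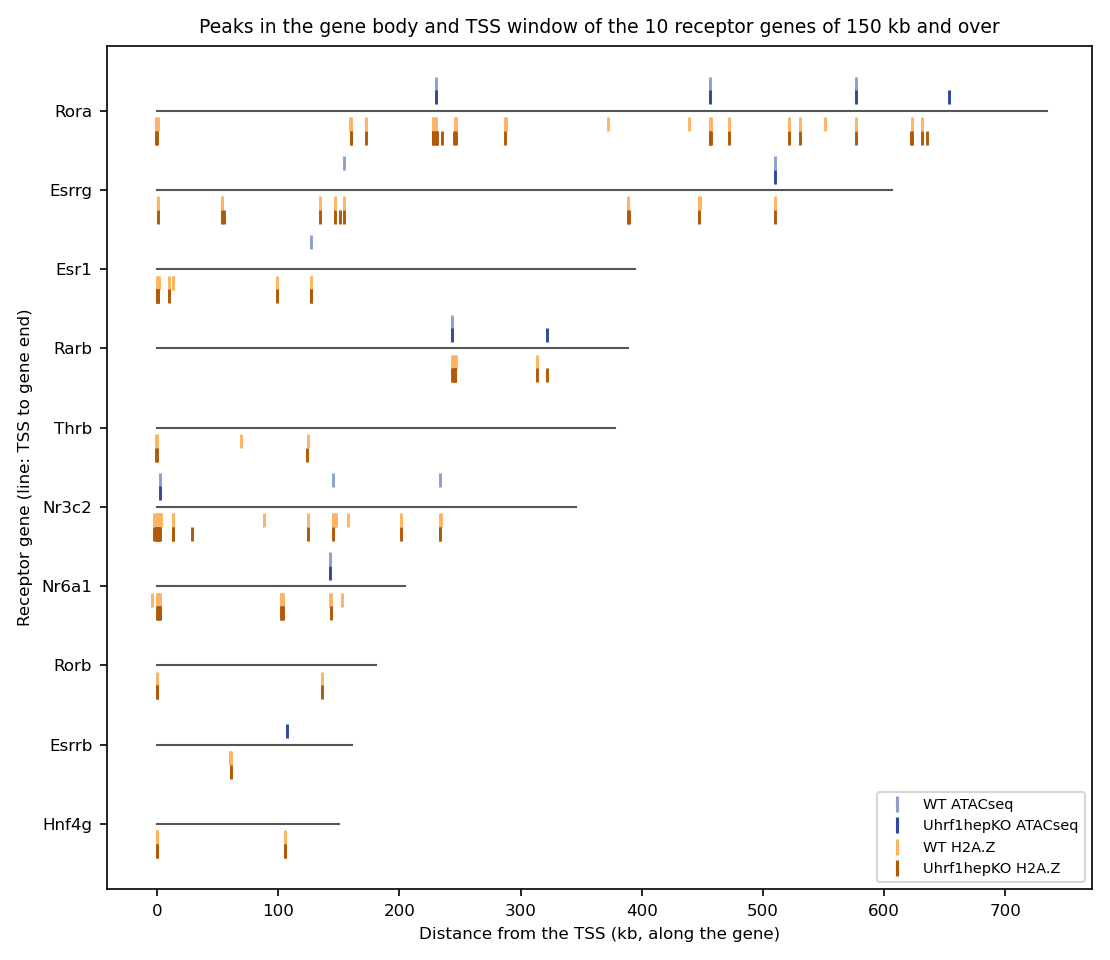
Positions of peaks (ticks) along the 10 receptor genes of 150 kb and over (rows, longest at the top), in kb from the TSS (x axis). The line runs from the TSS to the end of the gene, ATACseq ticks are above it and H2A.Z ticks below, with WT in light and Uhrf1hepKO in dark colours. Rora has 23 H2A.Z ticks in its body in each genotype and 3 positions with ATACseq ticks in both, and Rarb has none near the TSS.

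Some of the internal peaks mark other starts. At Rarb, a retinoic acid receptor gene, no peak was at the 5′ end. An ATACseq peak lay inside it, at 243641 bp in WT (fold 5.62) and 243727 bp in Uhrf1hepKO (fold 3.75). Its centres were 28 and 11 bp from annotated internal starts, which were not the same start. H2A.Z lay beside it, at 243242 bp in WT (fold 5.61) and 243241 bp in Uhrf1hepKO (fold 6.27). Rxrg had an ATACseq peak 85 bp from an internal start in WT (fold 4.76) and 65 bp from it in Uhrf1hepKO (fold 3.73), overlapped by an H2A.Z peak in both (folds 7.56 and 6.27). Nr6a1 had one 25 and 38 bp from an internal start (folds 4.83 and 4.44). When the start of any annotated transcript was taken, 12 of 43 receptors had an ATACseq peak within 5 kb in WT and 16 in Uhrf1hepKO. The shares of all protein-coding genes were then 32.9% and 30.7%. The receptors were thus nearer to all genes in WT than at the 5′ end, and above them in Uhrf1hepKO. The liver-role receptors remained at 0 of 11 in WT, and in Uhrf1hepKO Nr1h3 was added to Nr0b2 and Ppara (27.3%). For H2A.Z, Nr3c1 was added in both genotypes (54.5%).

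Simple motifs were searched on both strands of the ATACseq peaks at receptor TSSs. The GC box (GGGCGG, bound by SP factors) was in 8 of 9 peaks in WT (88.9%, interval 56.5 to 98.0%) and 11 of 12 in Uhrf1hepKO (91.7%, interval 64.6 to 98.5%), against 62.5% and 58.3% of the TSS peaks of all protein-coding genes, whose median width was 279 and 250 bp against 248 and 219 bp for the receptors. Nr4a3 and Nr2c2 gave 2 peaks each, and the peaks beside Pold1 and, in Uhrf1hepKO, Slc39a7 were counted. In WT 5 of the 7 receptors with such a peak, and in Uhrf1hepKO 8 of the 10, are in the high CpG class. The part of the CpG number in these shares was not tested. The core AGGTCA, which many nuclear receptors bind, was in 1 of 9 and 2 of 12 peaks, against 13.8% of all TSS peaks in both genotypes. Its direct repeat spaced by 1 base and the cAMP response element TGACGTCA were in none of the receptor peaks, and in 0.141% and 5.38% of all TSS peaks in WT. The RefSeq promoters, from 250 bases before to 50 after a start, were found for 39 of the 43 receptors, as 59 promoters. AGGTCA was in 10 of them (16.9%, against 16.3% of all 32851 promoters) and the GC box in 26 (44.1%, against 35.7%). The liver-role receptors with AGGTCA in a promoter were Nr1h4, Nr5a2, Rxra and Thrb. A match gives only the letters and does not show binding.

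Most coregulators that nuclear receptors recruit were marked by H2A.Z. Of 14 such genes, 12 had an H2A.Z peak at the TSS in each genotype (85.7%, interval 60.1 to 96.0%, against 52.8% and 51.0% of all protein-coding genes), and 5 in WT (35.7%, interval 16.3 to 61.2%) and 4 in Uhrf1hepKO (28.6%, interval 11.7 to 54.6%) an ATACseq peak, close to the 30.2% and 27.9% of all protein-coding genes. Of the 14 genes, 10 are in the high CpG class, in which 77.2% of all genes had H2A.Z in WT. The highest WT folds were at the arginine methyltransferase gene Carm1 (11.2), the corepressor genes Nrip1 (8.77) and Ncor1 (8.53) for H2A.Z, and at the coactivator gene Ncoa2 (4.77), Carm1 (4.51) and the deacetylase gene Hdac3 (4.47) for ATACseq. Ppargc1a, the coactivator of gluconeogenesis, had no TSS peak in any library. Of 6 further receptor genes outside the list, Hnf4a had no TSS peak in any library and Nr1d2, a circadian repressor gene, had both marks in both genotypes.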

How the data were processed

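Peak lists of 4 libraries were used, WT and Uhrf1hepKO livers by ATACseq and by H2A.Z ChIPseq. Reads had been mapped by the authors with BWA-MEM (GRCm38.p4) and passed through PICARD, and MACS2 was run by them on each library separately, in broad mode for ATACseq. A p-value of 0.05 is stated for the calls, but the q-values in the deposited lists reach only 0.0997 and 0.0993 for ATACseq and 0.0500 and 0.0489 for H2A.Z (WT and Uhrf1hepKO). Duplicate removal is stated for ChIPseq only, the ATACseq reads are described as single-end although the calls used a paired-end option, and the MACS2 version, a control library, a Tn5 shift and the mode of the H2A.Z calls are not given in the sources used here. FastQC 0.11.5 and Trimmomatic are named in the submitters' processing notes. The deposited score is 10 times the −log10 q-value. The deposited fold is a ratio of pileup to local background, not scaled between libraries, and the deposited −log10 p- and q-values belong to the same peaks. The deposited summit, an offset in bp, was used for H2A.Z and the peak centre for ATACseq.

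Positions are 1-based. Genes came from GENCODE vM21, and sequence and promoters from RefSeq (GRCm38.p6), which shares its chromosome coordinates with GRCm38. Overlap needed 1 bp. The receptors, the liver-role list, coregulators and markers were chosen with earlier results of these data known. Genes named are every liver-role receptor, the 3 members with the highest TSS fold per library, those whose detection differed between genotypes, the 5 with the most body peaks and the 3 top coregulators. Nr1h5, Nr2e1, Nr2e3, Nr2f1, Nr2f2, Nr2f6, Nr4a1, Nr4a2, Esr2 and Pgr fall outside this rule and were chosen after their values were seen. Windows, starts, lists and peak filters were varied one at a time. The overlap count was tested on simulated data. Depth is known only through the lists. The work was done in Python 3.11.15 with scipy 1.17.1, pandas 2.3.3, numpy 2.4.6 and, for plots, matplotlib 3.10.9.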

Additional observations from a re-analysis of the deposited data

How the results depend on the processing

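Of 100 recomputed values, 80 stayed within 1.5 times the count, or within the 95% interval of the share, and 20 did not. Percentages in parentheses after a count of receptors are the shares of all protein-coding genes. Taking 1 kb on either side of the TSS left 4 of 43 receptors with a WT ATACseq peak (against 26.4% of all protein-coding genes), 1 with a peak in WT only (Ppard, 6.16%), and 2 in WT and 3 in Uhrf1hepKO with both assays (24.4% and 21.8%). With 500 bp there were also 4 in WT ATACseq (25.3%). Any annotated transcript start gave 12 of 43 receptors in WT and 16 in Uhrf1hepKO ATACseq (against 32.9% and 30.7%). The Uhrf1hepKO share of receptors was then above that of all genes. Keeping peaks whose fold reached the median of their list left 3 and 4 receptors with ATACseq at the TSS (19% and 18.2%), 5 with a body peak in Uhrf1hepKO ATACseq (17.9%), and 2 and 3 with both assays (16.8% and 15.5%). In that setting the liver-role share in Uhrf1hepKO ATACseq was 0%, and the share of the other receptors was 9.38% in WT ATACseq, 12.5% in Uhrf1hepKO ATACseq and 34.4% in WT H2A.Z. Without the TSS window, 9 receptors had a Uhrf1hepKO ATACseq body peak (8.94%). Among H2A.Z TSS peaks, overlap of at least 50% of both peaks gave 49.1% shared in WT and 52.8% in Uhrf1hepKO, and a peak of the other genotype within 500 bp gave 87.7% in WT. The cause was not tested, beyond the fewer peaks or narrower rule in each setting. With any annotated transcript start, the liver-role receptors still had no WT ATACseq peak. The narrower windows and the fold filter could only remove peaks, so their 0% was fixed in advance. In the list of 8 the WT ATACseq share was also 0%. In the list of 18 the share was 16.7%, against 16% of the other receptors. With that list the liver-role share was the higher one in Uhrf1hepKO ATACseq (27.8% against 20%). The same held for H2A.Z, with 55.6% against 48% in WT and 55.6% against 52% in Uhrf1hepKO. The direction of the comparison thus depended on the list. Lists of equal length and a q-value of at most 0.01 moved no count by over 1.5 times. At that q-value, however, Nr0b2, Ppara and Pparg lost their Uhrf1hepKO ATACseq peak at the TSS. No liver-role receptor then had an ATACseq peak at the TSS in either genotype. No paired analysis was possible because each group has 1 library.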
